A study of Arabidopsis thaliana with 24 samples.

Results

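The 8 genes of the evening complex and of the LNK family in the Arabidopsis circadian clock were followed across 4 growth settings at 2 times of day. The rule lists them by locus and uses no measured value: ELF3 (AT2G25930), ELF4 (AT2G40080), LUX (AT3G46640) and BOA (AT5G59570), and LNK1 (AT5G64170), LNK2 (AT3G54500), LNK3 (AT3G12320) and LNK4 (AT5G06980). All 8 were found among the 27655 genes of the count files, and all 8 were among the 18797 genes that passed the filter on low counts. Polyadenylated RNA of whole Arabidopsis thaliana seedlings, 14 days old and grown on soil, had been counted by tags from the 3′ ends of transcripts in 24 libraries. The series sets natural long days outdoors beside long days indoors. Natural 2014 and natural 2013 seedlings grew outdoors in an open cage under a garden blanket that dimmed the sunlight, in July 2014 and June 2013. LD+FR+TEMP seedlings grew in an indoor long day with added 730 nm far-red light that set the red to far-red ratio to 1. Their chamber ran a daily temperature cycle from 15.8 up to 22.8 °C, taken from outdoor readings of June 2013. Lab LD seedlings grew in the standard indoor long day. Each setting was sampled at zeitgeber time 16 (ZT16, in hours after dawn, the evening) and at ZT4 (the morning), with 3 libraries per group. The labels give no strain, genotype or transgene, and do not say whether the 3 libraries of a group came from separate plantings. The p-values therefore measure only the spread between these samples, which may be technical.

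In the plant clock, ELF3, ELF4 and LUX join at dusk into the evening complex, which represses transcription during the night. ELF3 is its scaffold, ELF4 a small partner protein of ELF3, and LUX the MYB-type protein that contacts DNA. BOA, also called NOX, is a close relative of LUX. The complex is known to repress PRR9, PRR7, GI and the growth regulators PIF4 and PIF5. The LNK proteins are coactivators without a DNA-binding domain of their own. They are brought to evening genes such as TOC1 and PRR5 by the MYB-type proteins RVE8 and RVE4, and the LNK genes themselves are known as morning genes.

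The outdoor libraries were shallower, with 6543615 to 10711582 counts in 12 libraries, against 12069812 to 16089156 counts in the 12 indoor libraries. Depth therefore cannot be told apart from growing outdoors, except where all libraries were thinned to the smallest. Levels are given as CPM (counts scaled to a common library size), and are compared only within a gene. The seedling label was checked against markers: 5 green leaf genes summed to 23400 to 57200 CPM and 8 root genes to 244 to 426 CPM over the libraries. The floral organ markers AP1, AP3, PI, AG and SEP3 summed to 4.86 to 14.3 CPM outdoors, against 0.673 to 2.34 CPM indoors. The sum does not hold for each marker. AG did not pass the filter on low counts, and its outdoor and indoor libraries overlapped at both times. PI was not called at ZT4 between natural 2014 and lab LD (0.39 ± 0.49). The part of these markers in the differences below was not tested. AP1 was at 0 counts in 3 of the 4 indoor groups. In whole seedlings, fewer cells of a type and less RNA per cell cannot be told apart.

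The sequences just upstream of the genes hold motifs by which clock proteins are known to bind. Windows of 300 bases before the annotated start (RefSeq annotation of TAIR10.1) of 7 of the genes were searched on both strands for 5 short motifs. These were the evening element AAAATATCT, bound by RVE8 and its relatives; the CCA1-binding site AAAAATCT; GATACG and GATTCG, both forms of the LUX-binding site; and the G-box CACGTG, bound by PIF proteins among others. LUX (chr3:17182742-17183041, plus strand) and BOA (chr5:24003588-24003887, plus strand) are shown because they alone of these 7 held an evening element. LNK3 (chr3:3923215-3923514, plus strand) is shown for its 2 G-boxes. Each window runs from 5′ to 3′ on the strand of the gene, with the motif matches in capitals.
LUX: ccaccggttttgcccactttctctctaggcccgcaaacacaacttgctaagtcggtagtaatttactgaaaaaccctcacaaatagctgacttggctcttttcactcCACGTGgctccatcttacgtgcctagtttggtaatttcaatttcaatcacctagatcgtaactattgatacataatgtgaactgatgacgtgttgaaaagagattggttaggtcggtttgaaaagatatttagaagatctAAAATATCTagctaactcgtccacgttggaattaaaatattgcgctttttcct
BOA: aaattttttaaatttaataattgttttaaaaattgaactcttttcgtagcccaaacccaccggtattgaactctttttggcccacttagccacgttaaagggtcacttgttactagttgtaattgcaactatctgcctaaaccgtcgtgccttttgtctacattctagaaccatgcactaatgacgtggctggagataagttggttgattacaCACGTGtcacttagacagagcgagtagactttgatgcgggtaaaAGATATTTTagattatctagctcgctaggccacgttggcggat
LNK3: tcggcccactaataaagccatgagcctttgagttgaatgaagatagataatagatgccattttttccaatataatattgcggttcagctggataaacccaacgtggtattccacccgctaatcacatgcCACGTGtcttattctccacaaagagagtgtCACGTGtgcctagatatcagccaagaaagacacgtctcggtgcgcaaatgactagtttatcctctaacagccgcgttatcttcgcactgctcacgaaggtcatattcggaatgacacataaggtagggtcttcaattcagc
The evening element of LUX lay 53 to 45 bases before the start, and that of BOA, on the other strand, 43 to 35 bases before it. Both windows also held a G-box, from base 193 upstream in LUX and from base 87 upstream in BOA. Of 27443 windows of this length, 2.79% held an evening element, 7.09% a G-box and 0.186% (51 windows) both. GATACG was found in the windows of ELF3 and LNK2, against 5.51% of all windows, and LNK1 and LNK4 held none of the 5 motifs. AAAAATCT and GATTCG, in 7.94% and 9.34% of all windows, were in none of the 7 windows, and no matches overlapped.

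Of the 4 evening complex genes, 3 were far higher at ZT16 than at ZT4 in every growth setting. ELF3 rose 3.18- to 7.3-fold, ELF4 28- to 145-fold and BOA 14.1- to 98.4-fold, the upper ends for ELF4 and BOA resting on few ZT4 reads. LUX differed between settings and between its transcript models. In all, 7 of the 8 genes were called between ZT16 and ZT4 in natural 2014, 7 in natural 2013, 8 in LD+FR+TEMP and 8 in lab LD, at an adjusted p under 0.05. The shares of all tested genes called in these settings were 45.7%, 35.5%, 23.5% and 21.9%. Higher at ZT16 were 3, 3, 4 and 4 of the 8 genes (23.2%, 17.6%, 11.4% and 10.4% of all tested genes), and the 4 LNK genes were lower in each (22.5%, 17.8%, 12.1% and 11.5%). ELF3, the scaffold, had 27.5, 27.4 and 24.7 CPM at ZT16 in natural 2014, against 3.89, 3.57 and 3.48 CPM at ZT4. In natural 2013 it had 25.3, 22.2 and 19.6 CPM at ZT16, against 3.47, 2.98 and 2.7 CPM at ZT4. The ZT16 libraries stood well above the ZT4 libraries in both years, with nearly the same log2 fold change of 2.86 ± 0.13 (SE, n = 3 libraries per group; adjusted p = 1.39e-15) in 2014 and 2.87 ± 0.13 (adjusted p = 3.66e-15) in 2013. In LD+FR+TEMP, ELF3 had 20.2, 19.1 and 18.4 CPM at ZT16, against 5.87, 5.58 and 6.65 CPM at ZT4. In lab LD it had 20.5, 20.9 and 20.4 CPM at ZT16, against 3.76, 3.76 and 3.98 CPM at ZT4. Again without overlap, the change was 1.67 ± 0.11 for LD+FR+TEMP (adjusted p = 3.98e-12) and for lab LD 2.42 ± 0.11 (adjusted p = 7.17e-15).

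ELF4 and BOA nearly vanished from the morning libraries. ELF4 had 33.5, 41.4 and 31.7 CPM at ZT16 in natural 2014, against 0.169, 0.571 and 0.151 CPM at ZT4, where 1, 4 and 1 reads were counted. In natural 2013 it had 44.5, 43.3 and 42.4 CPM at ZT16, against 0.347, 0.157 and 0.324 CPM at ZT4. These were log2 fold changes of 6.81 ± 0.47 (adjusted p = 4.83e-12) and 7.18 ± 0.45 (adjusted p = 1.03e-12), resting on few morning reads. Indoors every evening library read higher than outdoors. LD+FR+TEMP had 61.9, 60.7 and 63.0 CPM at ZT16, against 0.819, 0.942 and 1.37 CPM at ZT4. In lab LD, ELF4 had 53.9, 51.6 and 47.7 CPM at ZT16, against 0.616, 0.736 and 4.29 CPM at ZT4, so that 1 morning library, replicate 3, stood apart with 55 reads where the others had 10 and 9. The changes were 5.87 ± 0.32 for LD+FR+TEMP (adjusted p = 1.34e-13) and 4.80 ± 0.30 for lab LD (adjusted p = 1.49e-12). The evening libraries of ELF4 separated the settings without overlap, with means of 35.5 CPM in natural 2014, 43.4 in natural 2013, 61.9 in LD+FR+TEMP and 51.1 in lab LD. Of these evening differences, only that between natural 2014 and LD+FR+TEMP was called in the fit of all groups. It was not called by DESeq2 or limma-trend. BOA, the relative of LUX, had 15.7, 25.2 and 18.9 CPM at ZT16 in natural 2014 and 17.9, 15.2 and 18.5 CPM in natural 2013, against 0.338, 0.429 and 0.454 CPM at ZT4 in 2014 and 0, 0 and 0.432 CPM in 2013. In LD+FR+TEMP and lab LD, BOA averaged 16.3 and 14.1 CPM at ZT16, against 0.674 and 0.975 CPM at ZT4. Its log2 fold changes were 5.57 ± 0.32, 6.62 ± 0.36, 4.57 ± 0.24 and 3.82 ± 0.23 in natural 2014, natural 2013, LD+FR+TEMP and lab LD (largest adjusted p = 7.77e-13). The outdoor changes of BOA rest on very few morning reads, 2, 3 and 3 in natural 2014 and 0, 0 and 4 in natural 2013. Their size is therefore imprecise. The ZT16 and ZT4 libraries of ELF4 and BOA did not overlap in any setting.

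**Figure D1:**
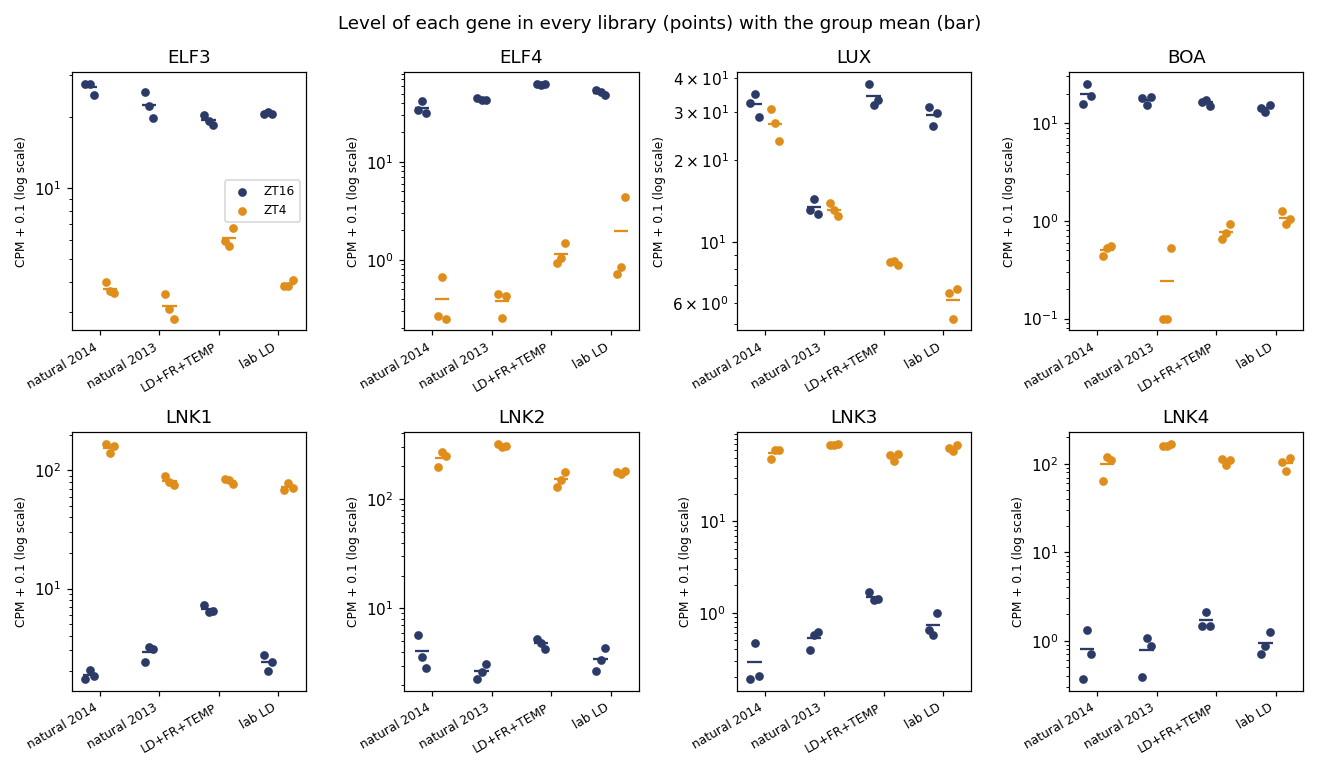
Level of each of the 8 genes in every library, as CPM + 0.1 on a log scale, for ZT16 (dark points) and ZT4 (orange points) in natural 2014, natural 2013, LD+FR+TEMP and lab LD. Each point is 1 library and each bar the mean of 3. ELF3, ELF4 and BOA are high at ZT16 and the LNK genes high at ZT4 in every setting, while the LUX points of both times lie together outdoors.

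LUX, the DNA-binding member, showed no evening rise outdoors when the counts of all its transcript models were summed. It had 32.5, 35.0 and 28.9 CPM at ZT16 in natural 2014, against 30.7, 27.4 and 23.5 CPM at ZT4. In natural 2013 it had 13.1, 14.3 and 12.6 CPM at ZT16, against 13.8, 13.0 and 12.4 CPM at ZT4. The times overlapped in both years and no change was called, at 0.24 ± 0.11 (adjusted p = 0.0826) in 2014 and 0.03 ± 0.13 (adjusted p = 0.877) in 2013; the 2014 value passed without natural 2014 ZT4 replicate 1 (0.34) and without natural 2014 ZT16 replicate 3 (0.31). Indoors LUX was clearly higher in the evening: 38.2, 31.8 and 33.3 CPM at ZT16 in LD+FR+TEMP, against 8.4, 8.41 and 8.16 CPM at ZT4. In lab LD it had 31.3, 26.7 and 29.8 CPM at ZT16, against 6.41, 5.15 and 6.63 CPM at ZT4. The changes were 2.05 ± 0.12 (adjusted p = 3.81e-13) and 2.26 ± 0.12 (adjusted p = 1.08e-13).

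The transcript models of LUX differed among themselves, and this comparison was chosen after seeing the data. Models 1 and 3 of LUX end within 2312 bases of the gene start. Model 2 ends in an exon of 2071 bases (chr3:17184889-17186959), of which 1507 bases lie in AT3G46650, a gene of the UDP-glycosyltransferase family on the opposite strand. Of the same exon, 698 bases lie in exons of AT3G46650. The strand used in counting is not given in the sources used here. Reads of LUX model 2 and of AT3G46650 therefore cannot be told apart where model 2 and AT3G46650 overlap. With models 1 and 3 alone, LUX averaged 13.0 ± 1.85 CPM at ZT16 and 1.58 ± 0.337 CPM at ZT4 in natural 2014 (SD, n = 3). In natural 2013 it averaged 5.51 ± 1.12 CPM at ZT16 and 1.87 ± 0.219 CPM at ZT4. In LD+FR+TEMP these models averaged 19.1 ± 1.55 and 1.6 ± 0.33 CPM at ZT16 and ZT4, and in lab LD 14.8 ± 1.7 and 1.63 ± 0.92 CPM. The exons of the LUX models overlap, so these levels depend on how reads shared between models were divided. By these models LUX rose at ZT16 in all 4 settings. The changes were 3.03 ± 0.27 for natural 2014 (adjusted p = 5.35e-10), 1.57 ± 0.28 for natural 2013 (adjusted p = 8.65e-05), 3.57 ± 0.22 for LD+FR+TEMP (adjusted p = 1.27e-12) and 3.12 ± 0.22 for lab LD (adjusted p = 1.89e-11).

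Most of the outdoor morning level of LUX lay in model 2. Model 2 held 94.1% of the LUX counts at ZT4 in natural 2014, 85.8% in natural 2013, 80.7% in LD+FR+TEMP and 71.8% in lab LD, against 44.4% to 59.6% in the 4 groups at ZT16. It averaged 25.6 ± 3.96 CPM at ZT4 in natural 2014, 11.2 ± 0.819 in natural 2013, 6.72 ± 0.305 in LD+FR+TEMP and 4.43 ± 1.16 in lab LD. Counted alone, model 2 fell at ZT16 relative to ZT4 outdoors (-0.42 ± 0.14 in 2014, adjusted p = 0.0156, and -0.52 ± 0.17 in 2013, adjusted p = 0.0179). Indoors it rose at ZT16, by 1.19 ± 0.14 for LD+FR+TEMP (adjusted p = 4.99e-07) and 1.71 ± 0.15 for lab LD (adjusted p = 2.61e-09). AT3G46650 averaged 2.81, 1.65, 4.56 and 6.95 CPM at ZT16 in natural 2014, natural 2013, LD+FR+TEMP and lab LD, against 7.84, 8.04, 11.1 and 8.06 CPM at ZT4. The part of AT3G46650 in the model 2 counts was not tested. Minor models of other members also differed in share between settings at ZT4. Model 2 of LNK3 held 2.44%, 3.8% and 5.67% of its counts in natural 2014, natural 2013 and LD+FR+TEMP, against 7.51% in lab LD. Model 5 of LNK2 held 0.897%, 0.986% and 2.62% in these settings, against 2.56% in lab LD. These shares were not tested, and they depend on how reads shared between models were divided.

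**Figure D2:**
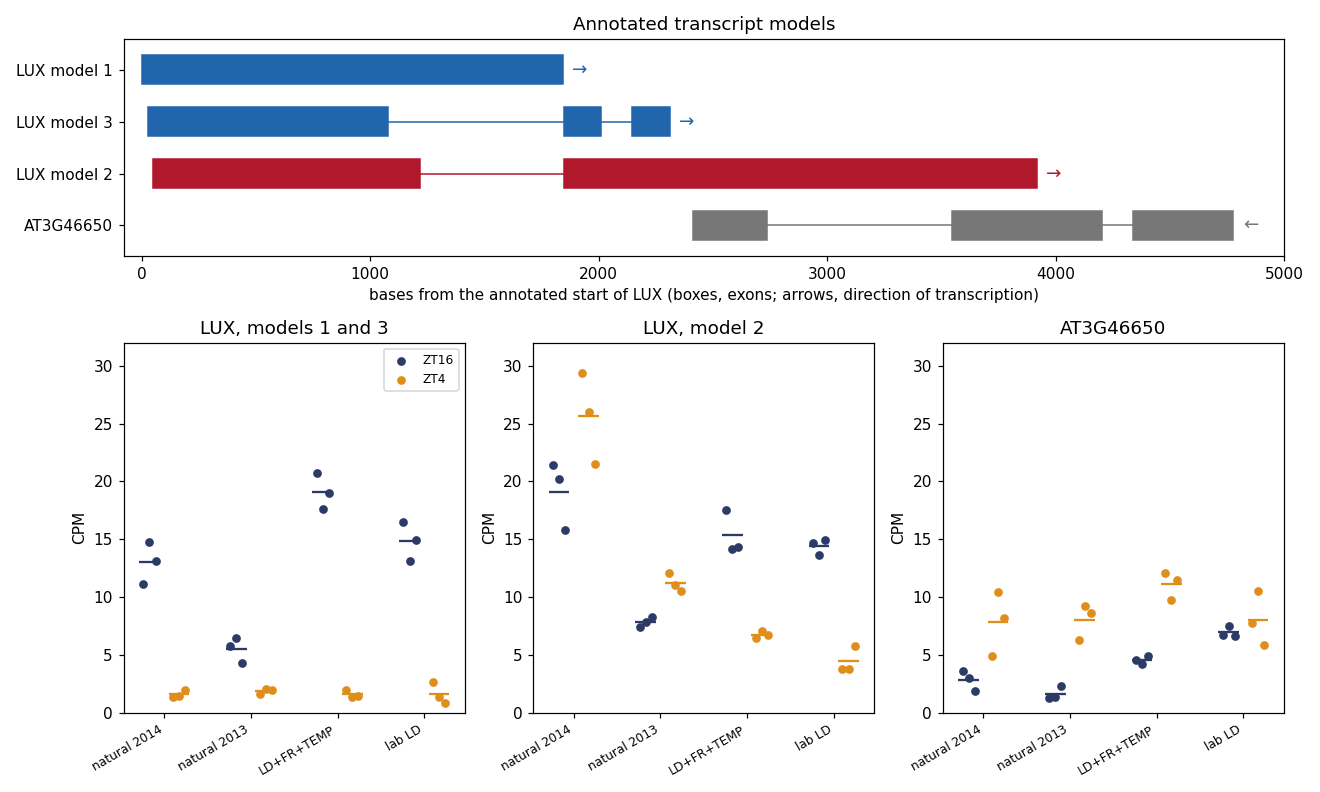
Top, the annotated LUX models and the gene AT3G46650 on the opposite strand, in bases from the start of LUX. Bottom, CPM in each library (points) with the mean of 3 (bars) for LUX models 1 and 3 summed, LUX model 2, and AT3G46650, at ZT16 (dark) and ZT4 (orange). Models 1 and 3 are low at ZT4 in all 4 settings (means of 1.58 to 1.87 CPM), while model 2 reaches a mean of 25.6 CPM at ZT4 in natural 2014.

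The 4 LNK genes were the mirror image of ELF3, ELF4 and BOA: all 4 fell at ZT16 relative to ZT4 in all 4 settings, with no overlap between the libraries of the times. The share of all tested genes without such overlap was not counted for any comparison in the text. LNK1 had 1.62, 1.96 and 1.73 CPM at ZT16 in natural 2014, against 168, 140 and 160 CPM at ZT4. In natural 2013 it had 2.31, 3.12 and 2.98 CPM at ZT16, against 90.1, 80.2 and 75.4 CPM at ZT4. In LD+FR+TEMP it had 7.09, 6.22 and 6.39 CPM at ZT16, against 83.9, 83.6 and 76.5 CPM at ZT4, the highest evening level and the smallest difference between times. In lab LD it had 2.63, 1.91 and 2.3 CPM at ZT16, against 68.2, 77.9 and 71.4 CPM at ZT4. The log2 fold changes of LNK1 were -6.45 ± 0.14, -4.85 ± 0.14, -3.63 ± 0.11 and -4.98 ± 0.13 in natural 2014, natural 2013, LD+FR+TEMP and lab LD (largest adjusted p = 3.43e-18). The gene AT5G64160, whose 3′ end overlaps that of LNK1 by 245 bases on the other strand, averaged between 9.77 and 12.9 CPM in all 8 groups, at both times.

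LNK2, LNK3 and LNK4 had larger log2 fold changes than LNK1 in natural 2013, LD+FR+TEMP and lab LD, a difference between genes that was not tested. LNK2 averaged 3.96, 2.56, 4.69 and 3.36 CPM at ZT16 in natural 2014, natural 2013, LD+FR+TEMP and lab LD, against 238, 308, 151 and 175 CPM at ZT4. Its changes were -5.89 ± 0.19, -6.90 ± 0.21, -5.01 ± 0.18 and -5.70 ± 0.19. LNK3 averaged 0.188, 0.429, 1.4 and 0.645 CPM at ZT16, against 56.3, 69.2, 51.6 and 63.9 CPM at ZT4 in the same order of settings. In natural 2014 its evening level was 1, 4 and 1 reads. Its change of -8.14 ± 0.23 there thus rests on very few reads, and the approximate SE can be too small. The other LNK3 changes were -7.28 ± 0.22, -5.20 ± 0.16 and -6.61 ± 0.18. LNK4 averaged 0.698, 0.676, 1.6 and 0.846 CPM at ZT16, against 98.2, 161, 107 and 102 CPM at ZT4. Its changes were -7.12 ± 0.30, -7.83 ± 0.31, -6.05 ± 0.25 and -6.89 ± 0.27. The largest adjusted p among these 12 changes was 3.65e-16. LD+FR+TEMP had the highest evening mean of all 4 LNK genes, and its libraries lay above those of the next setting without overlap for LNK1, LNK3 and LNK4 but not for LNK2.

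**Figure D3:**
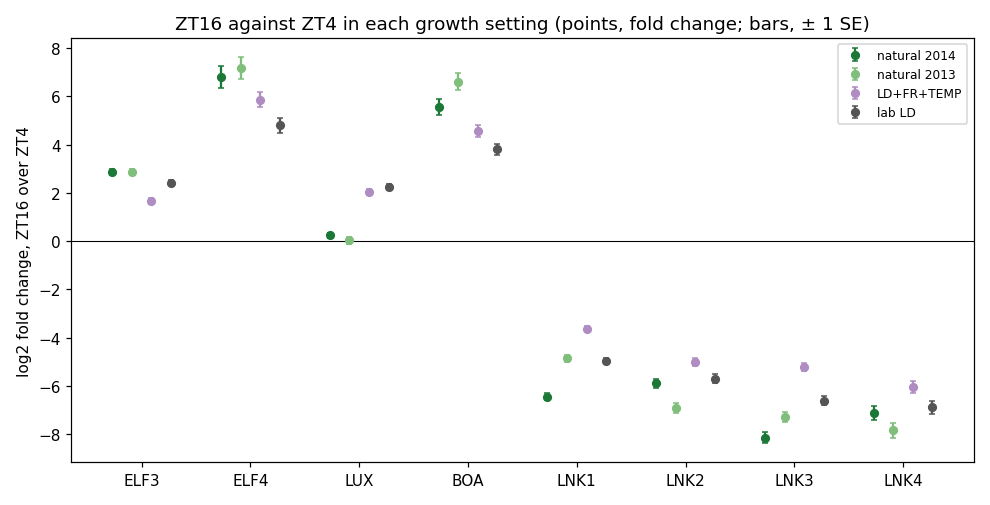
Log2 fold change of ZT16 over ZT4 for each gene in natural 2014, natural 2013, LD+FR+TEMP and lab LD. Bars are 1 approximate SE, which can be too small for large changes on few reads. LUX counts are summed over all models. ELF3, ELF4 and BOA lie above 0 and LNK1 to LNK4 below 0 in all 4 settings, and LUX lies near 0 outdoors (0.24 and 0.03).

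In the morning, natural 2014 seedlings had more LNK1, LNK2 and summed LUX than lab LD seedlings, and less ELF4. At ZT4, 4 of the 8 genes were called between natural 2014 and lab LD, where 44.3% of all tested genes were called. LNK1 was 2.15-fold higher (156 against 72.5 CPM; 1.11 ± 0.10, adjusted p = 1.15e-09) and LNK2 1.36-fold higher (238 against 175 CPM; 0.44 ± 0.14, adjusted p = 0.0132), both with no overlap; the LNK2 call was lost without natural 2014 ZT4 replicate 2 (0.34) and under limma-trend (0.43). LUX was 4.46-fold higher by the sum of its models (2.16 ± 0.13, adjusted p = 7.97e-13), but -0.10 ± 0.35 (adjusted p = 0.849) by models 1 and 3. ELF4 averaged 0.297 CPM in natural 2014 and 1.88 CPM in lab LD (-2.52 ± 0.76, adjusted p = 0.0085), a call lost without lab LD ZT4 replicate 3 (-1.10). ELF3 (-0.07 ± 0.16), LNK3 (-0.18 ± 0.11) and LNK4 (-0.05 ± 0.18) did not pass, and for ELF3 the interval of 2 SE around the difference ran between -0.39 and 0.25. BOA just missed (-1.25 ± 0.51, adjusted p = 0.0506).

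Natural 2013 seedlings shared the higher LNK2 in the morning but not the higher LNK1. At ZT4, 5 of the 8 genes were called between natural 2013 and lab LD, against 29.0% of all tested genes. LNK2 had 320, 300 and 305 CPM in natural 2013, against 176, 169 and 180 CPM in lab LD (0.82 ± 0.14, adjusted p = 0.000111). LNK4 had 157, 159 and 168 CPM in natural 2013, against 106, 83.3 and 117 CPM in lab LD (0.66 ± 0.17, adjusted p = 0.0056; not called under limma-trend, 0.67). For both genes the libraries of the groups did not overlap. LNK1 was at 81.9 against 72.5 CPM and did not pass (0.18 ± 0.10, adjusted p = 0.18). ELF4 (-2.61 ± 0.71, adjusted p = 0.00726) and BOA (-2.52 ± 0.59, adjusted p = 0.00238) fell, with 7 and 4 reads in all in the natural 2013 libraries; the ELF4 call was lost without lab LD ZT4 replicate 3 (-1.19). Summed LUX was higher (13.1 against 6.06 CPM; 1.10 ± 0.13, adjusted p = 1.22e-06), and by models 1 and 3 it was at 0.13 ± 0.32 (adjusted p = 0.795).

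ELF3 and summed LUX rose in the morning under LD+FR+TEMP, but neither call held under every alternative. At ZT4, 2 of the 8 genes were called between LD+FR+TEMP and lab LD, against 16.9% of all tested genes. ELF3 had 5.87, 5.58 and 6.65 CPM in LD+FR+TEMP, against 3.76, 3.76 and 3.98 CPM in lab LD, so that every LD+FR+TEMP library was higher (0.66 ± 0.13, adjusted p = 0.000705). This was the highest morning level of ELF3 in the series, and the call was lost when libraries were thinned to the smallest (0.50, adjusted p = 0.0914). Summed LUX was at 8.32 against 6.06 CPM (0.45 ± 0.13, adjusted p = 0.0188). That call was lost without LD+FR+TEMP ZT4 replicate 1 (0.45) or 2 (0.44) and without lab LD ZT4 replicate 2 (0.35), and by models 1 and 3 LUX was at -0.08 ± 0.29. ELF4 was at -0.79 ± 0.45 (adjusted p = 0.251), but at 0.64 without lab LD ZT4 replicate 3 and past the threshold without lab LD ZT4 replicate 1 (-1.27). The 4 LNK genes differed by -0.31 to 0.17 and none passed. Of 8 root genes, 1 rose and 0 fell (median of all 8 0.75).

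In the evening LNK1 and, less firmly, LNK3 rose under LD+FR+TEMP relative to lab LD. At ZT16, 2 of the 8 genes were called between LD+FR+TEMP and lab LD, where only 2.65% of all tested genes were called. LNK1 had 7.09, 6.22 and 6.39 CPM in LD+FR+TEMP, against 2.63, 1.91 and 2.3 CPM in lab LD, a 2.87-fold rise (1.52 ± 0.14, adjusted p = 1.41e-06). It was called under every alternative run. LNK3 had 1.58, 1.29 and 1.32 CPM in LD+FR+TEMP, against 0.551, 0.478 and 0.907 CPM in lab LD, counts of 21 to 24 against 8 to 15 reads (1.10 ± 0.26, adjusted p = 0.0263). The LNK3 call was lost without LD+FR+TEMP ZT16 replicate 1 (1.00) or 2 (1.14), without lab LD ZT16 replicate 1 (0.99) or 2 (0.92), with thinned libraries (0.97) and with only these groups fitted (1.10). LNK2 (0.48 ± 0.21) and LNK4 (0.91 ± 0.38) did not pass. The 4 evening complex genes differed by -0.10 to 0.28, and none passed. Tissue markers moved in the same comparison: 3 of 8 root genes rose (median of all 8 1.45), among them the aquaporin gene TIP2;3 (2.07 ± 0.34, adjusted p = 0.00175) and the Casparian strip gene CASP1 (1.12 ± 0.23, adjusted p = 0.0116), and 3 of 5 green leaf genes rose (median 0.43). Their part in the LNK differences was not tested.

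Outdoors the evening differences from lab LD were small for most members. Between natural 2014 and lab LD, 3 of the 8 genes were called at ZT16, against 35.8% of all tested genes. ELF3 was 1.29-fold higher (26.5 against 20.6 CPM; 0.36 ± 0.10, adjusted p = 0.00434), with every natural 2014 library above every lab LD library. BOA was at 19.9 against 14.1 CPM (0.50 ± 0.16, adjusted p = 0.0157), a call lost without natural 2014 ZT16 replicate 2 (0.29), without lab LD ZT16 replicate 1 (0.48) or 2 (0.44), and under limma-trend (0.47). LNK3, at 6 reads in all, was at -1.71 ± 0.46 (adjusted p = 0.00804), which was lost without natural 2014 ZT16 replicate 1 (-1.37) or 3 (-1.45) and without replicate 3 of lab LD at ZT16 (-1.39). ELF4 had 35.5 against 51.1 CPM without overlap but did not pass (-0.52 ± 0.22, adjusted p = 0.0609); it passed with no filter (-0.53), with thinned libraries (-0.55) and with only these groups fitted (-0.52). Between natural 2013 and lab LD, 1 of the 8 genes was called at ZT16, LUX, against 29.1% of all tested genes. LUX had 13.1, 14.3 and 12.6 CPM in natural 2013, against 31.3, 26.7 and 29.8 CPM in lab LD (-1.13 ± 0.12, adjusted p = 1.72e-07). Both model 2 (-0.88 ± 0.15, adjusted p = 0.000138) and models 1 and 3 (-1.42 ± 0.20, adjusted p = 9.1e-06) fell, so this evening difference did not depend on model 2.

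**Figure D4:**
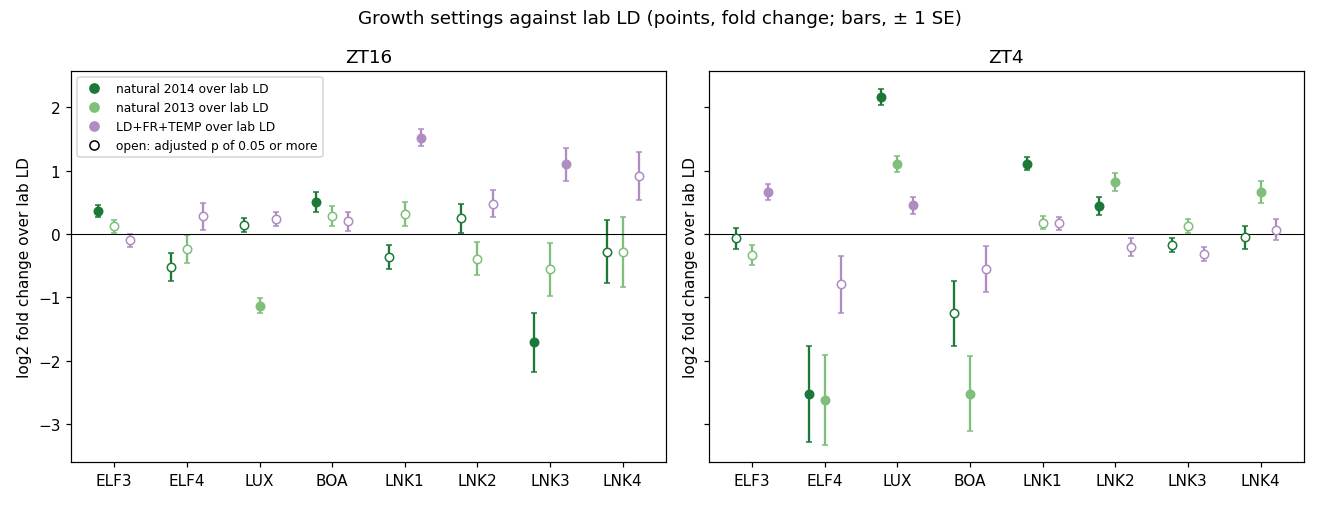
Log2 fold change over lab LD of natural 2014, natural 2013 and LD+FR+TEMP at ZT16 (left) and ZT4 (right), with bars of 1 approximate SE. Filled points passed an adjusted p of 0.05. LNK1 stands out in LD+FR+TEMP at ZT16 (1.52) and in natural 2014 at ZT4 (1.11), and LUX, summed over its models, at ZT4 outdoors (2.16 and 1.10) and at ZT16 in natural 2013 (-1.13).

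Set against LD+FR+TEMP, the indoor day with added far-red light and moving temperature, outdoor seedlings of both years had less LNK1 and LNK3 in the evening, while LNK2 and LNK4 were each called lower in 1 year. At ZT16, 5 of the 8 genes were called for natural 2014 (29.6% of all tested genes) and 4 for natural 2013 (21.0%). LNK1 was 3.69-fold lower in natural 2014 (-1.88 ± 0.16, adjusted p = 6.47e-09) and 2.32-fold lower in natural 2013 (-1.21 ± 0.16, adjusted p = 6.97e-06). LNK3 was lower in both years (-2.81 ± 0.40, adjusted p = 7.64e-06, and -1.65 ± 0.36, adjusted p = 0.00177), from 6 and 10 reads outdoors against 66 in LD+FR+TEMP. LNK4 was at -1.19 ± 0.50 in 2013 (adjusted p = 0.0904) and passed in 2014 by little (-1.19 ± 0.45, adjusted p = 0.0473), a call lost without natural 2014 ZT16 replicate 1 (-0.79) or 3 (-1.11) and without LD+FR+TEMP ZT16 replicate 1 (-1.28), 2 (-0.98) or 3 (-1.29). LNK2 was at -0.23 ± 0.22 in 2014 (adjusted p = 0.461), passed in 2013 (-0.87 ± 0.25, adjusted p = 0.0159) and did not without natural 2013 ZT16 replicate 1 (-0.77) or 2 (-0.85) or LD+FR+TEMP ZT16 replicate 1 (-0.79). ELF4 had 33.5, 41.4 and 31.7 CPM in natural 2014, against 61.9, 60.7 and 63.0 CPM in LD+FR+TEMP (-0.80 ± 0.22, adjusted p = 0.00645; not called by DESeq2, -0.81, or limma-trend, -0.81). ELF3 was 1.38-fold higher in natural 2014 (0.46 ± 0.10, adjusted p = 0.000691). Summed LUX fell in natural 2013 (-1.37 ± 0.12, adjusted p = 1.42e-08), as it did by models 1 and 3 (-1.79 ± 0.20, adjusted p = 5.61e-07). In natural 2014 summed LUX was at -0.10 ± 0.11 (adjusted p = 0.533), with models 1 and 3 lower (-0.55 ± 0.17, adjusted p = 0.0161) and model 2 at 0.32 ± 0.13 (adjusted p = 0.072). Root genes were also lower at ZT16, 6 of 8 in natural 2014 (median -1.40) and 7 of 8 in natural 2013 (median -1.82). Their part in the LNK differences was not tested.

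In the morning the same comparison put ELF3 lower and LNK2 higher outdoors. At ZT4, 4 of the 8 genes were called between natural 2014 and LD+FR+TEMP (34.1% of all tested genes) and 6 between natural 2013 and LD+FR+TEMP (23.1%). ELF3 averaged 3.65 CPM in natural 2014 and 3.05 CPM in natural 2013, against 6.03 CPM in LD+FR+TEMP (-0.73 ± 0.15, adjusted p = 0.000595, and -0.98 ± 0.15, adjusted p = 2.54e-05). LNK2 was higher in 2014 (0.65 ± 0.14, adjusted p = 0.000817) and in 2013 (1.03 ± 0.14, adjusted p = 1.14e-05). LNK1 was higher in 2014 (0.94 ± 0.10, adjusted p = 3.12e-08) and at 0.01 ± 0.10 in 2013. In 2013 LNK3 (0.42 ± 0.11, adjusted p = 0.0076) and LNK4 (0.59 ± 0.17, adjusted p = 0.0147) were also higher, neither called under limma-trend (0.43 and 0.59). LNK3 was lost without LD+FR+TEMP ZT4 replicate 2 (0.35), and LNK4 without natural 2013 ZT4 replicate 3 (0.56) or LD+FR+TEMP ZT4 replicate 2 (0.53). BOA was lower in 2013 (-1.97 ± 0.64, adjusted p = 0.027), from 4 reads in all, a call lost without natural 2013 ZT4 replicate 1 (-1.37) or 2 (-1.55) and without LD+FR+TEMP ZT4 replicate 3 (-1.80). Summed LUX was higher in both years (1.71 ± 0.12 and 0.65 ± 0.13), and by models 1 and 3 it was at -0.01 ± 0.35 and 0.21 ± 0.32. Of 8 root genes, 5 were lower at ZT4 in natural 2014 (median -1.03) and 1 in natural 2013 (median -0.78), with 0 higher in either year. Root genes thus did not move with the LNK genes in the morning, and their part was not tested.

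Among the genes called between the outdoor years, LUX and LNK1 had the largest differences. At ZT16, LUX was the 1 gene of the 8 called between natural 2014 and natural 2013, where 5.16% of all tested genes were called. It was 2.41-fold higher in 2014 (32.2 against 13.3 CPM; 1.27 ± 0.12, adjusted p = 1.75e-06), both by model 2 (1.29 ± 0.16, adjusted p = 1.81e-05) and by models 1 and 3 (1.24 ± 0.21, adjusted p = 0.000662). At ZT4, 4 of the 8 were called, against 31.0% of all tested genes. LNK1 had 168, 140 and 160 CPM in 2014, against 90.1, 80.2 and 75.4 CPM in 2013, a 1.91-fold difference (0.93 ± 0.10, adjusted p = 6.09e-08). LNK4 went the other way, with 63.7, 120 and 111 CPM in 2014, against 157, 159 and 168 CPM in 2013 (-0.71 ± 0.18, adjusted p = 0.00286; not called under limma-trend, -0.76). LNK2 (-0.37 ± 0.14, adjusted p = 0.0472) and LNK3 (-0.30 ± 0.12, adjusted p = 0.0526) lay on either side of the threshold. The LNK2 call was lost without natural 2014 ZT4 replicate 1 (-0.26) or 3 (-0.41) and without natural 2013 ZT4 replicate 1 (-0.34), 2 (-0.39) or 3 (-0.38), and LNK3 passed without natural 2014 ZT4 replicate 2 (-0.35) or 3 (-0.36). Morning LUX was 2.08-fold higher in 2014 by the summed counts (1.06 ± 0.12, adjusted p = 3.39e-07) and at -0.22 ± 0.37 by models 1 and 3. The labels give 1 growing period for each year, so the year and any batch of plants cannot be told apart.

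Whether the size of the ZT16 to ZT4 difference itself changed with the setting was tested as an interaction. Relative to lab LD, 4 of the 8 genes were called for natural 2014 (30.3% of all tested genes), 4 for natural 2013 (17.4%) and 3 for LD+FR+TEMP (4.24%), and 2 were called between the outdoor years (17.1%). The evening to morning difference of BOA was larger outdoors than in lab LD, by 1.75 ± 0.53 in natural 2014 (adjusted p = 0.0136) and 2.80 ± 0.61 in natural 2013 (adjusted p = 0.00192). Both values rest on few ZT4 reads, 2, 3 and 3 in natural 2014 and 0, 0 and 4 in natural 2013. The 2014 call was lost without lab LD ZT4 replicate 1 (1.58) and with thinned libraries (1.89, adjusted p = 0.0559). The evening to morning difference of LNK1 was more negative in natural 2014 (-1.47 ± 0.21, adjusted p = 4.91e-06) and less negative in LD+FR+TEMP (1.36 ± 0.17, adjusted p = 2.92e-05). For natural 2013 it differed from lab LD by 0.13 ± 0.21 (adjusted p = 0.756). LNK1 thus also separated the years (-1.60 ± 0.23, adjusted p = 2.02e-05). The change of ELF3 between times was smaller under LD+FR+TEMP than under lab LD (-0.75 ± 0.16, adjusted p = 0.00592), lost with thinned libraries (-0.64, adjusted p = 0.1). LUX by its summed counts gave -2.02 ± 0.17 for natural 2014 (adjusted p = 5.23e-10) and -2.23 ± 0.18 for natural 2013 (adjusted p = 1.97e-09). By models 1 and 3 the natural 2014 value was -0.09 ± 0.39 (adjusted p = 0.89) and the natural 2013 value -1.55 ± 0.38 (adjusted p = 0.00529), where the evening level itself was low.

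The genes on which these proteins act or with which they work moved strongly between the times. Of the 9 evening complex targets and partners listed from general knowledge, 9 fell at ZT16 in natural 2014, 9 in natural 2013, 8 in LD+FR+TEMP and 7 in lab LD. The shares of all tested genes called lower at ZT16 were 22.5%, 17.8%, 12.1% and 11.5%. The medians of the list were -2.09, -3.02, -2.42 and -2.26, against 0.04, 0.01, 0.01 and -0.02 over all tested genes. PRR9, a repressor of the morning clock, had log2 fold changes of -8.61 ± 0.26, -7.56 ± 0.28, -6.87 ± 0.24 and -6.42 ± 0.23 in these settings. PIF4, the growth regulator, was lower outdoors than in lab LD in the morning, at 11.3 CPM in natural 2014 and 26.6 CPM in natural 2013, against 49.1 CPM in lab LD (-2.13 ± 0.14, adjusted p = 5.41e-12, and -0.88 ± 0.12, adjusted p = 8.63e-06). In the evening PIF4 was higher, at 4.3, 3.25 and 6.46 CPM in natural 2014, natural 2013 and LD+FR+TEMP, against 2.2 CPM in lab LD (0.96 ± 0.19, 0.57 ± 0.21 and 1.55 ± 0.17). GI, a clock gene of the photoperiodic flowering pathway, rose at ZT4 in natural 2014 (2.34 ± 0.21, adjusted p = 2.12e-09), natural 2013 (1.28 ± 0.22, adjusted p = 0.000113), and under LD+FR+TEMP (0.92 ± 0.22, adjusted p = 0.00385), each relative to lab LD. At ZT4 against lab LD, 5, 7 and 4 of the 9 were higher and 3, 1 and 1 lower in natural 2014, natural 2013 and LD+FR+TEMP, where 44.3%, 29.0% and 16.9% of all tested genes were called.

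Most partners of the LNK proteins shared the morning timing. Of the 7 RVE partners and LNK targets, 5 fell and 2, 1, 2 and 2 rose at ZT16 in natural 2014, natural 2013, LD+FR+TEMP and lab LD. TOC1, a target, rose by 3.96 ± 0.18, 2.97 ± 0.17, 3.01 ± 0.15 and 2.55 ± 0.15 in natural 2014, natural 2013, LD+FR+TEMP and lab LD. Relative to lab LD at ZT16, 2 of the 7 were higher and 4 lower in natural 2014 (35.8% of all tested genes called), 1 higher and 4 lower in natural 2013 (29.1%), and 0 higher and 1 lower in LD+FR+TEMP (2.65%). RVE8, the partner that brings the LNK proteins to DNA, averaged 2.29, 1.56 and 7.1 CPM at ZT16 in natural 2014, natural 2013 and LD+FR+TEMP, against 10.2 CPM in lab LD. It fell in all of them (-2.14 ± 0.18, -2.69 ± 0.21 and -0.52 ± 0.14, adjusted p of 2.12e-09, 1.58e-09 and 0.0422). LHY, a morning MYB gene, fell at ZT16 in both outdoor years relative to lab LD (-1.60 ± 0.29 and -2.19 ± 0.34). At ZT4, LHY rose by 2.21 ± 0.18, 1.75 ± 0.18 and 1.29 ± 0.18 and its relative CCA1 by 1.23 ± 0.11, 1.00 ± 0.11 and 0.65 ± 0.11 in natural 2014, natural 2013 and LD+FR+TEMP relative to lab LD. CCA1 and LHY were thus higher in the morning in all 3 settings, whereas LNK1 was called higher at ZT4 in natural 2014 alone; whether CCA1 and LNK1 differed in this was not tested. Among the 5 relatives of ELF4 and ELF3, 4 were tested, of which 2, 1, 1 and 1 rose and 0, 1, 0 and 1 fell at ZT16 in natural 2014, natural 2013, LD+FR+TEMP and lab LD. EFL4 rose in all 4 (1.36 ± 0.29, 2.65 ± 0.30, 1.05 ± 0.24 and 0.89 ± 0.23). Of 14 other clock genes, 8, 6, 5 and 6 rose and 4, 4, 2 and 5 fell at ZT16 in natural 2014, natural 2013, LD+FR+TEMP and lab LD, with the evening gene COR27 at 7.77 ± 0.47, 5.33 ± 0.31, 5.74 ± 0.33 and 5.21 ± 0.32. For these lists of partners, relatives and other clock genes, the shares of all tested genes called between the times were 23.2%, 17.6%, 11.4% and 10.4% higher and 22.5%, 17.8%, 12.1% and 11.5% lower.

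Genes with the most similar pattern were sought among 12699 tested genes with a mean of at least 5 CPM, by Pearson's r over the 8 group means of log2 CPM. The 8 means share their libraries and the same pair of times, so r is given as a description. Closest to LNK4 were PIL6, which encodes PIF5 (r = 0.995), CCA1 (0.994) and BBX19 (0.993), and CCA1 was also among the 3 closest to LNK1 (0.986), with AT5G41770 (0.990) and AXR3 (0.986). LNK2 was closest to AT4G13800 (0.997), COL2 (0.996) and HDR (0.994). LNK3 was closest to HEMA1 of chlorophyll synthesis (0.994) and the light-harvesting genes CAB2 and LHCB2.2 (0.991 each), whose near-identical copies make their counts uncertain. BOA was closest to DPE1 of starch breakdown (0.994), AT4G33980 (0.993) and RVE2 (0.992). ELF4 was closest to AT2G15830 (0.995), SEX4 (0.992) and AT4G16146 (0.991), and ELF3 to PUT2 (0.995), AT2G40085 and AT2G25730 (0.993 each). Summed LUX was closest to PIP (0.986), AT2G01680 (0.947) and REV (0.944). With the other 7 members summed LUX had r between -0.61 and 0.57, while every pair of the other 7 had r of at least 0.95 in size.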

How the data were processed

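Whole-number read counts per transcript model had been deposited for each of 24 libraries; per the labels' protocols, polyadenylated RNA was made into 3′ tag libraries. The submitters' processing notes name bcl2fastq 2.17.1.14, Trimmomatic 0.36, Bowtie2, edgeR and the TAIR10 build. The strand used in counting and the treatment of reads shared between models or loci are not given in the sources used here. A deposited table of normalized values was not used.

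Counts were summed per locus. Genes were kept by filterByExpr (minimum count 10, minimum total 15), scaled by TMM and fitted with 8 group means over all 24 libraries. Log2 fold changes and Benjamini-Hochberg adjusted p-values over 18797 genes came from edgeR's quasi-likelihood test (edgeR 4.0.16, R 4.3.3). Calls were made at an adjusted p under 0.05 (common dispersion 0.0143). That test gives no standard error. Each SE was taken as the size of the log2 fold change over the square root of the test's F value. It is approximate, and can be too small for large changes that rest on few reads. CPM used TMM library sizes. The fit was tested on simulated counts. DESeq2 1.42.0, limma 3.58.1, no filter, only the groups compared, a replicate block, thinned libraries and leaving out each library were alternatives; LUX counts by transcript model were added after seeing the data. Replicate numbers did not pair the libraries: same-number correlations ran between -0.125 and 0.21, with 0 of 16 group pairs over 0.1 throughout.

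The rule for the members names loci and uses no values, but these genes and the gene lists were chosen for study with earlier results of these data known. Named list genes were those with the smallest adjusted p in each direction among called genes whose libraries did not overlap between the groups. Clock genes, PIF4 and PIF5 of the lists could also be named wherever the levels of a member were described. Likeness used the 3 highest r. Upstream sequences and gene positions are from RefSeq (TAIR10.1), matched by locus. The upstream window of 1 member is not reported here. Counts of 3 or fewer reads give imprecise levels, and intervals cover counting and library spread only as the fit estimates it.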

Additional observations from a re-analysis of the deposited data

Results flagged for a closer look

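The ZT16 to ZT4 difference itself differed between settings for 13 combinations of gene and setting, by the interaction term of edgeR's quasi-likelihood test. For LUX, summed over its models, the difference was -2.02 ± 0.17 on the log2 scale for natural 2014 relative to lab LD (adjusted p = 5.23e-10) and -2.23 ± 0.18 for natural 2013 (adjusted p = 1.97e-09). With models 1 and 3 alone these values were -0.09 (adjusted p = 0.89) and -1.55 (adjusted p = 0.00529). The natural 2014 value thus lay in the counts assigned to model 2, the model that overlaps AT3G46650. The part of AT3G46650 in it was not tested.

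For LNK1 the difference was -1.47 ± 0.21 for natural 2014 relative to lab LD (adjusted p = 4.91e-06), 1.36 ± 0.17 for LD+FR+TEMP relative to lab LD (adjusted p = 2.92e-05) and -1.60 ± 0.23 for natural 2014 relative to natural 2013 (adjusted p = 2.02e-05). These 3 values were called under every alternative run. For BOA it was 1.75 ± 0.53 for natural 2014 (adjusted p = 0.0136) and 2.80 ± 0.61 for natural 2013 (adjusted p = 0.00192) relative to lab LD, on 8 and 4 reads at ZT4 in those years. The 2014 call was lost without lab LD ZT4 replicate 1 (1.58) and with thinned libraries.

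ELF4 gave 2.38 ± 0.76 for natural 2013 relative to lab LD (adjusted p = 0.0315). That call was lost without lab LD ZT4 replicate 3 (0.95), the library with 55 ELF4 reads, and without natural 2013 ZT4 replicate 1 (2.55), 2 (2.17) or 3 (2.49). LNK2 gave -1.20 ± 0.30 for natural 2013 relative to lab LD (adjusted p = 0.00521) and 1.01 ± 0.31 for natural 2014 relative to natural 2013 (adjusted p = 0.0223), the second lost without natural 2013 ZT16 replicate 1 (0.91) or 2 (0.99) and without natural 2014 ZT16 replicate 1 (0.65). LNK3 gave -1.53 ± 0.48 for natural 2014 relative to lab LD (adjusted p = 0.0227) and 1.41 ± 0.29 for LD+FR+TEMP relative to lab LD (adjusted p = 0.00479); the first was lost without natural 2014 ZT16 replicate 1 (-1.19) or 3 (-1.27) and without replicate 3 of lab LD at ZT16 (-1.21), and the second with thinned libraries (1.31). ELF3 gave -0.75 ± 0.16 for LD+FR+TEMP relative to lab LD (adjusted p = 0.00592), lost with thinned libraries (-0.64). No explanation of these differences was tested.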

How the results depend on the processing

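Each of 160 gene comparisons was recomputed under every alternative. Direction and side of the threshold held for 155 with DESeq2, 158 with DESeq2 size factors, 141 with limma-trend, 158 without the filter, 144 with thinned libraries, 136 of those that could be fitted with only the groups compared, and 147 with LUX counted by models 1 and 3. With libraries left out, 1068 values held, 46 lost the call, 10 gained it and 28 changed sign. The replicate block changed 1 call, LNK2 in natural 2014 against natural 2013 at ZT4 (-0.38, adjusted p = 0.0504), and kept 159; the numbers do not pair the libraries. Scaling moved the median of all genes by at most 0.026 (log2), and 0 of 64 group means moved by more than their SD. Of 2128 list counts under alternatives, 233 moved by over 1.5 times.

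With only the groups compared, members called were 2 in natural 2013 against lab LD at ZT16 (1 in the fit of all groups), 1 in LD+FR+TEMP against lab LD at ZT16 (2), 3 in natural 2013 against lab LD at ZT4 (5) and 1 in LD+FR+TEMP against lab LD at ZT4 (2). Thinned libraries gave 1, 0 and 1 called in LD+FR+TEMP against lab LD at ZT16, at ZT4 and for the difference between times (3), limma-trend gave 3 in natural 2014 against natural 2013 at ZT16 (1), and LUX models 1 and 3 gave 1 in LD+FR+TEMP against lab LD at ZT4. With a library left out, members called ranged over 1 to 2 and 1 to 3 in LD+FR+TEMP against lab LD at ZT16 and ZT4, and 1 to 3 for the difference between times in natural 2014 against natural 2013 (2).

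Genes called in LD+FR+TEMP against lab LD at ZT16 were 499, but 243 under limma-trend, 311 thinned, and 66 (without lab LD ZT16 replicate 1) to 1209 (without LD+FR+TEMP ZT16 replicate 3) with a library left out. In natural 2014 against natural 2013 at ZT16 they were 969, against 1485 with only the groups compared and 339 (without natural 2013 ZT16 replicate 2) to 849 with a library left out. In LD+FR+TEMP against lab LD at ZT4, 3184 became 1838 with only the groups compared. For the difference between times in LD+FR+TEMP against lab LD, 797 became 520 thinned and 501 to 1023 with a library left out.

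Signs changed in values that were not called, except 4 of LUX at ZT4. Thinned libraries gave 0.06 (LNK4, natural 2014 against lab LD, ZT16), -0.02 (LUX, ZT16 against ZT4, natural 2013), 0.01 and 0.1 (LNK2 and LNK4, difference between times, natural 2014 against lab LD) and 0.11 (ELF3, the same, natural 2014 against natural 2013; 0.01 with only the groups compared). For natural 2014 against natural 2013, LNK4 at ZT16 was 0.0 with DESeq2 and its size factors and -0.02 under limma-trend, and ELF4 at ZT4 was -0.01 under limma-trend; LNK1 in natural 2013 against LD+FR+TEMP at ZT4 was 0.0 without the filter. LUX by models 1 and 3 changed sign to -0.19 and -0.10 (natural 2014 against lab LD, ZT16 and ZT4), -0.08 (LD+FR+TEMP against lab LD, ZT4), -0.01 and -0.22 (natural 2014 against LD+FR+TEMP and natural 2013, ZT4) and 0.45 (difference between times, LD+FR+TEMP against lab LD); of these, the 4 at ZT4 were called for the summed locus.

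With a library left out, values that changed sign ranged as follows. Against lab LD, natural 2014 at ZT16 gave -0.11 to 0.44 for LNK2 and -0.96 to 0.12 for LNK4, natural 2013 at ZT16 gave -0.62 to 0.04 for LNK4, natural 2014 at ZT4 gave -0.23 to 0.18 for LNK4, and LD+FR+TEMP at ZT4 gave -1.27 to 0.64 for ELF4 and -0.05 to 0.18 for LNK4. Against LD+FR+TEMP at ZT4, LNK4 in natural 2014 gave -0.3 to 0.11 and LNK1 in natural 2013 -0.07 to 0.07. Natural 2014 against natural 2013 gave -0.68 to 0.4 for LNK4 at ZT16 and -0.81 to 0.41 for ELF4 at ZT4. LUX at ZT16 against ZT4 in natural 2013 gave -0.02 to 0.08. The difference between times gave -0.56 to 0.0 for LNK2 and -0.91 to 0.17 for LNK4 (natural 2014 against lab LD), -0.36 to 1.55 for ELF4 (LD+FR+TEMP against lab LD), and -0.12 to 0.09 for ELF3 and -0.7 to 0.52 for ELF4 (natural 2014 against natural 2013). The cause was not tested, beyond the smaller number of libraries or reads that the alternative itself brings. Depth limits ELF4 and BOA at ZT4 and LNK3 and LNK4 at ZT16, with 0 to 4 reads per library outdoors for ELF4, BOA and LNK3 and 2 to 13 for LNK4.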
